A study of Mus musculus with 5 samples.

Results

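The mitochondrial protein import machinery was followed through 35 genes, those whose symbol in the platform annotation names a translocase of the outer membrane (Tomm) or inner membrane (Timm), Timmdc1, a subunit of the import motor, processing peptidases, the intermembrane space disulfide relay, the outer membrane assembly complex or the Oxa1l insertase. They are 35 of 19057 genes with a probe on the array and are read by 63 probes. RNA of erythroblasts, the nucleated cells that become red cells, was taken from the marrow of C57BL/6J mice and hybridised to Illumina bead arrays, 1 per sample. The genotype labels give 2 Flvcr-deleted and 3 wild-type samples, and the question of the design is what deletion of Flvcr (gene symbol Flvcr1), whose product exports heme, changes in erythroid cells. The sources used here do not give the age of the mice, the driver of the deletion or the deleted part of the gene. They also do not say whether replicates are separate animals, and all p-values therefore reflect the spread of these samples alone, which can be technical.

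Nearly all mitochondrial proteins are made in the cytosol and have to be imported. The TOM complex is the entry gate of the outer membrane. From there the TIM23 complex and its motor pull proteins with a presequence into the matrix, where peptidases remove the presequence, while the small TIM chaperones carry hydrophobic proteins across the intermembrane space to the TIM22 complex, and the SAM complex inserts beta-barrel proteins into the outer membrane. Chchd4 and Gfer form the MIA relay, which oxidises cysteines of small intermembrane space proteins, the small TIM chaperones among them. In erythroblasts the route serves, among others, the mitochondrial enzymes and carriers of heme synthesis.

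Signals are given as the deposited values, read as log2, and a probe was called measured if it lay above a background floor of 6.83 on at least 2 arrays. This held for 29 of the 35 genes. The other 6, Immp1l, Mtx2, Timm13, Timm22, Timm23 and Timm8a2, lay above the floor on at most 1 array, so nothing can be said of them at this sensitivity. Between 36.0% and 36.1% of all probes lay above the floor on each array, a likeness fixed by the common distribution of the deposited values. Arrays correlated with r from 0.989 to 0.992 within a group and from 0.948 to 0.954 between groups. Precision is limited by the number of arrays. Of the erythroblast markers 6 of 7 were measured, all 6 of them above the floor on every wild-type array. Markers of other marrow cells were present too, with 10 of 10 neutrophil markers above the floor on every array labelled wild type.

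The targeted gene did not show a loss of signal. Its measured probe gave 9.88 and 9.75 under the label Flvcr-deleted, 8.16, 8.32 and 8.25 under the label wild-type (log2 difference 1.57, SE 0.10; limma, adjusted p = 1.37e-05), and a further probe lay below the floor throughout. The signal was thus higher where the gene is labelled deleted. Its place relative to the deletion is unknown here, and it cannot check deletion or labels. Directions below run from labelled wild-type to labelled Flvcr-deleted and rest on the labels.

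Import genes were higher in the arrays labelled Flvcr-deleted. Of the 29 measured genes 15 rose, none fell and 14 did not pass (limma, Benjamini-Hochberg adjusted p under 0.05 over 10088 genes), where 21.8% of all genes tested rose and 17.5% fell. The median log2 difference was 0.46, against 0.01 over all genes. Because a gene can pass the floor through its brighter group alone, the count was also taken over the 27 import genes above the floor on all 5 arrays. Of these 15 rose, or 55.6%, beside 28.5% of all genes above the floor on all arrays. In each of the 15 both arrays labelled Flvcr-deleted lay above all 3 arrays labelled wild-type. That adds little to the call, which with so few arrays goes along with such separation. The share of all genes without overlap was not counted. The rise was at least 2-fold for 4 of the 15, Timm8a1, Timm9, Chchd4 and Tomm6. Of all genes tested 4.64% rose by as much.

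By function, 4 of 6 measured TOM genes rose, as did 2 of 6 of TIM22 and the small TIM chaperones. No probe carried the symbol Tomm5, Tomm20 or Tomm20l, so the TOM count leaves these genes out. Immp2l, of the processing set, had no probe under its symbol either. Of TIM23 and its motor 5 of 8 rose. Of processing genes it was 1 of 2, of MIA genes 2 of 2 and of SAM genes 1 of 2. Of all genes tested 21.8% rose, and of those above the floor on all arrays 28.5%, near the 33.3% of TIM22. Sets of 2 genes are too small for a share to be read. Neither Oxa1l nor the pair named for import but known for other roles, Timmdc1 and Tomm34, passed. The set medians were 0.54 for TOM, 0.48 for TIM22, 0.55 for TIM23 and 0.18 for processing. That of TIM22 moved most with single arrays, to 0.31 without Flvcr-deleted replicate 1 and 0.65 without replicate 2 of that group. The differences between sets were not tested. The members that did not pass had differences from -0.28 for Timm29 to 0.56 for Timm10, and 10 of these 14 were above 0. Of all 29 measured members 25 were above 0, beside 5210 of all 10088 genes. Pam16, Pmpca and Tomm70a, near the floor, were at 0.02 and turned to -0.03 with arrays centred on the median.

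Those markers of other marrow cells that passed in the same comparison all moved in the opposite direction. Of all genes tested 17.5% fell, and of those above the floor on all arrays 23.7%. Of the neutrophil markers 4 of 10 fell and none rose, and their summed linear signal was 5892 to 10327 in the arrays labelled Flvcr-deleted and 30939 to 35761 in those labelled wild-type. Of 6 measured mast cell, basophil and eosinophil markers 5 fell, with summed signals of 1056 to 1065 against 5605 to 8372. Of 4 measured B cell markers 2 fell (431 to 446 against 617 to 818), 1 of 2 measured markers each of T and NK cells (303 to 485 against 777 to 1301) and of megakaryocytes (265 to 311 against 736 to 767) fell, and of 7 macrophage markers none passed (1371 to 2216 against 1657 to 3382). Cd79b and Igll1, the B cell markers that fell, lay below the floor on both arrays labelled Flvcr-deleted. So did Mcpt8, counted among the mast cell, basophil and eosinophil markers that fell. These genes were measured through the arrays labelled wild-type alone, and the size of their fall cannot be read. Among the erythroblast markers 4 of 6 fell, Tfrc, Alas2, Klf1 and Epor, with summed signals of 75744 to 79607 against 96758 to 98983. The part of these shifts in the values of the import genes was not tested. In bulk RNA, more cells of a type and more RNA per cell cannot be told apart.

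**Figure D1:**
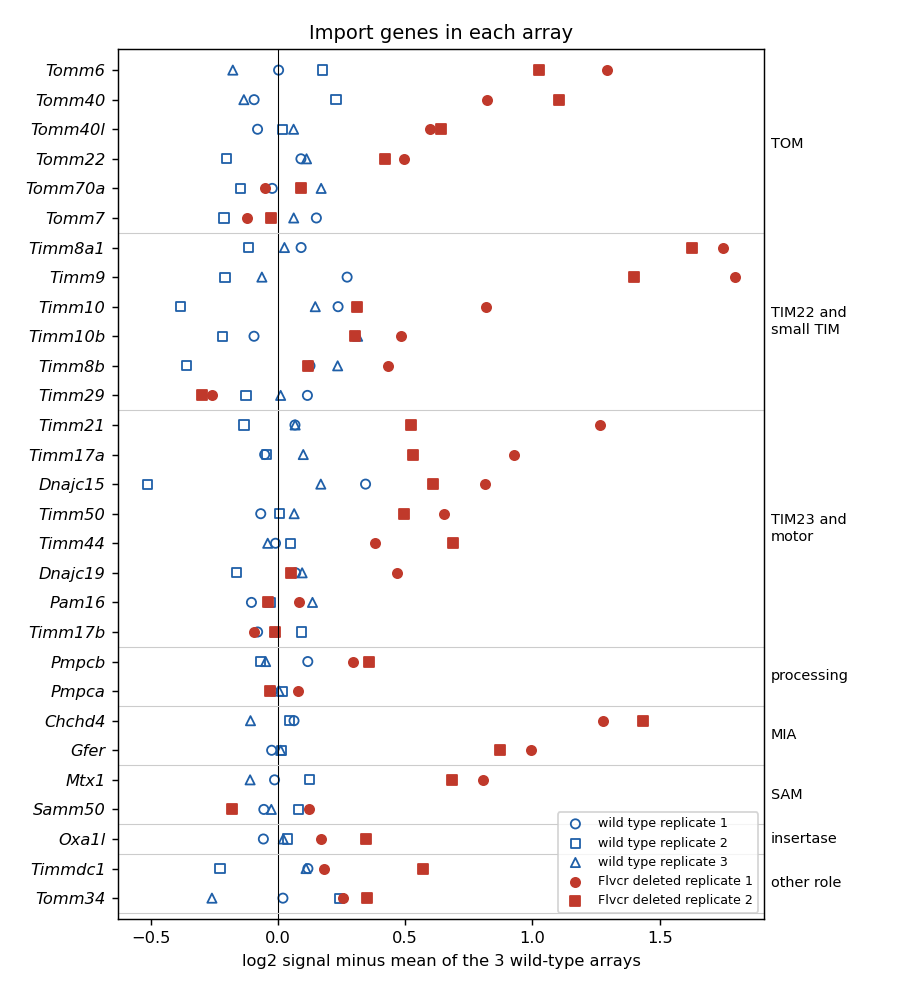
Log2 signal of each of the 29 measured import genes (rows, ordered by set) on each array, as the difference from the mean of the 3 arrays labelled wild type. Filled symbols are the 2 arrays labelled Flvcr deleted and open symbols those labelled wild type; for Timm8a1, Timm9, Chchd4 and Tomm6 the filled symbols lie far to the right of the open ones, while for Pam16, Timm17b, Tomm7 and Tomm70a they mix.

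Timm8a1 and Timm9 led the members by the probe of highest mean. With a gene's probes averaged Timm9 was at 0.94, below Chchd4 (1.36) and Tomm40 (0.96). Promoter windows were those of RefSeq (250 bases before to 50 after the annotated start, GRCm38.p6). Of the 32 members with a window, only Timm8a1 and Timm9 held a pair of CACGTG motifs, the E-box bound by MYC and USF factors. Shown are the windows of Timm8a1 and Timm9, which share this feature, and that of Timm10. Timm10, the binding partner of Timm9, holds a single CACGTG. Capitals mark CACGTG.

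Timm8a1, chrX:134541621-134541920, minus strand: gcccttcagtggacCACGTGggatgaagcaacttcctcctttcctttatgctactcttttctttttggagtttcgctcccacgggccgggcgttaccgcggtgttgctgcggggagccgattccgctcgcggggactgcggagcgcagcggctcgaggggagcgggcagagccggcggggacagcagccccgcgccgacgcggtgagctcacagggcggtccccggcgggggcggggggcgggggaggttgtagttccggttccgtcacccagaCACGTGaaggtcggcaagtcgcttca
Timm9, chr12:71136626-71136925, minus strand: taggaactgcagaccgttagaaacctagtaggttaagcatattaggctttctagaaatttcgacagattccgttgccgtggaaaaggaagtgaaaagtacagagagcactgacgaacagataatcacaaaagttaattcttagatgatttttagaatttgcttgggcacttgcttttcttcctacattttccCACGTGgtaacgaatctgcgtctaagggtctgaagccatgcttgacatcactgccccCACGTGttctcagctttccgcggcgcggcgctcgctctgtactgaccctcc
Timm10, chr2:84826771-84827070, plus strand: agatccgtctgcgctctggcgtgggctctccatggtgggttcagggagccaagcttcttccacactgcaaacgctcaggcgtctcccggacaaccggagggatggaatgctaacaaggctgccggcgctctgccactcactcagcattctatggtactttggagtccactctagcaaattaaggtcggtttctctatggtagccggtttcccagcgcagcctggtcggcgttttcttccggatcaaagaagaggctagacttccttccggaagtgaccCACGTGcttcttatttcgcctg

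Counted from the start, whose first base is 1, the motifs of Timm8a1 begin at -236 and 25, those of Timm9 at -58 and -1 and that of Timm10 at 29. Windows were matched for 32 of the 35 members and for 26 of the 29 measured ones. Tomm40l, Tomm7 and Timm21 were not matched. CACGTG occurred in 3 of the 26, or 11.5%, against 11.7% of the tested genes with a window and 8.09% of all genes with one. For 2 or more copies the shares were 7.69% against 1.36% and 0.681%. This class was not planned, and among the members it holds only Timm8a1 and Timm9. Its shares are description alone, and no excess can be read from them. Among members that rose and had a window CACGTG was in 15.4%, beside 16.5% of tested genes that rose. For 2 or more copies these were 15.4%, from Timm8a1 and Timm9, and 2.12%. The ETS motif CCGGAAGT, on either strand, was in 6 of the 26, or 23.1%, against 9.24% of tested genes and 4.31% of all genes. Of the 13 that rose and had a window 1 held it, Pmpcb, or 7.69%, beside 11.8% of tested genes that rose. The NRF1 core GCGCATGC, on either strand, was in none of the 26, against 6.05% of tested genes and 3.05% of all genes. Among the 6 members below the floor, 3 held the ETS motif and 1, Timm13, the NRF1 core. No match of one motif overlapped that of another in a member's window. A match describes letters, not binding.

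Of the entry gate, Tomm6, a small subunit that helps hold the TOM complex together, read 11.38 and 11.11 with the label Flvcr-deleted, against 10.09, 10.26 and 9.91 with the label wild-type. Signal averaged 11.25 ± 0.19 (SD, n = 2) and 10.09 ± 0.18 (SD, n = 3), a rise of 1.16 on the log2 scale (SE 0.13), or 2.23-fold (limma, adjusted p = 1.89e-04). Both deleted-labelled arrays stood well above the other group, and with the mean of its 2 probes the rise was 0.75. Tomm40, the pore itself, read 7.88 and 8.17 against 6.97, 7.29 and 6.93, a log2 difference of 0.96 (SE 0.14, adjusted p = 6.87e-04). Its wild-type-labelled signals were near the floor, and the fold of 1.95 understates the change if the deposited values still hold background. Tomm40l, a second form of the pore, read 9.998 and 10.04 against 9.32, 9.42 and 9.46 (0.62, SE 0.10, adjusted p = 0.00102). Its deleted-labelled replicates lay close together, with an SD of 0.03.

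Tomm22, the central receptor, read 10.63 and 10.55 against 10.22, 9.93 and 10.24, a rise of 0.46 (SE 0.12, adjusted p = 0.0148). The groups do not overlap, but without Flvcr-deleted replicate 1 the call was lost (0.42, adjusted p = 0.0893). Tomm70a, the receptor for carrier proteins and their cytosolic chaperones, read 6.99 and 7.13 against 7.02, 6.90 and 7.21 (0.02, SE 0.12, adjusted p = 0.924), and Tomm7, a small subunit, 9.43 and 9.53 against 9.70, 9.34 and 9.62 (-0.08, SE 0.13, adjusted p = 0.706). Both overlap between groups.

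Among the small TIM chaperones, Timm8a1, the mouse form of the human deafness-dystonia protein, read 11.34 and 11.21 with the label Flvcr-deleted, against 9.68, 9.47 and 9.61 with the label wild-type. Signal averaged 11.28 ± 0.09 (SD, n = 2) and 9.59 ± 0.11 (SD, n = 3), so that signal was 3.22-fold higher (log2 difference 1.69, SE 0.11; adjusted p = 1.20e-05). This was the largest difference among the members and the 71st largest rise of all 10088 genes. Timm9, which with Timm10 forms the carrier chaperone of the intermembrane space, read 11.02 and 10.63 against 9.50, 9.02 and 9.16, with means of 10.82 ± 0.28 (SD, n = 2) and 9.23 ± 0.25 (SD, n = 3). The difference was 1.60 (SE 0.17), or 3.03-fold (adjusted p = 1.12e-04). With the mean of its 3 measured probes it was 0.94 and still passed (adjusted p = 2.11e-04).

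Timm10, the partner of Timm9, read 8.87 and 8.36 against 8.29, 7.67 and 8.20. The difference of 0.56 (SE 0.21) did not pass (adjusted p = 0.0592), although both deleted-labelled arrays lay above the others, the lower one by little, and it passed in 5 of 14 alternative settings. Without Flvcr-deleted replicate 1 it was 0.31 (adjusted p = 0.383), without wild-type replicate 2 it was 0.37 (adjusted p = 0.124), and without Flvcr-deleted replicate 2 it was 0.82 (adjusted p = 0.0231). Timm10b, a small TIM bound to the TIM22 complex, read 9.79 and 9.60 against 9.21, 9.08 and 9.61 (0.39, SE 0.16, adjusted p = 0.0810), and Timm8b 11.85 and 11.53 against 11.54, 11.05 and 11.65 (0.27, SE 0.18, adjusted p = 0.283). Their groups overlap. All 5 measured small TIM genes were lowest, among the wild-type-labelled arrays, in replicate 2, and all 5 were higher in replicate 1 than in replicate 2 of the deleted-labelled ones, so this group carried a common spread between replicates. Over all 29 members, replicate 2 was the lowest wild-type-labelled array for 14.

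Timm29, a TIM22 subunit known from human cells, was the one measured member of its set to read lower, at 9.01 and 8.98 against 9.39, 9.15 and 9.29. The groups do not overlap, but the difference of -0.28 (SE 0.11) did not pass (adjusted p = 0.0664). It passed as lower without wild-type replicate 2 (-0.34, adjusted p = 0.0373) and in 3 other settings given at the end. Timm22, the channel of that complex, was not measured.

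In the presequence route, Timm21, a TIM23 subunit that contacts TOM, read 10.60 and 9.86 against 9.40, 9.20 and 9.40, a rise of 0.90 (SE 0.19, adjusted p = 0.00569). The deleted-labelled arrays differed from each other more than for any other measured member (SD 0.53), and without Flvcr-deleted replicate 1 the rise was 0.52 (adjusted p = 0.0258). With the mean of its 4 probes it was 0.58. Timm17a, a core channel subunit, read 11.38 and 10.98 against 10.40, 10.41 and 10.55 (0.73, SE 0.13, adjusted p = 0.00221). Its paralog Timm17b, near the floor on all arrays, read 6.86 and 6.94 against 6.87, 7.04 and 6.94 (-0.05, SE 0.10, adjusted p = 0.747). Timm50, the presequence receptor, read 10.12 and 9.97 against 9.40, 9.48 and 9.53 (0.57, SE 0.10, adjusted p = 0.00197), and its groups were well apart.

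The motor gave mixed values. Timm44, which tethers the chaperone mtHSP70 to the channel, read 9.18 and 9.48 against 8.79, 8.85 and 8.76 (0.53, SE 0.12, adjusted p = 0.00562), and its call was lost without Flvcr-deleted replicate 2 (0.38, adjusted p = 0.0645). Dnajc15, a J-protein of the inner membrane, read 10.31 and 10.10 against 9.84, 8.98 and 9.66 (0.71, SE 0.22, adjusted p = 0.0323). Replicate 2 of the wild-type-labelled arrays stood far below its group there. Without it the difference was 0.46 (adjusted p = 0.0212), and the call was lost without Flvcr-deleted replicate 1 (adjusted p = 0.147) or 2 (adjusted p = 0.0563).

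Dnajc19, the J-protein that stimulates mtHSP70 at the channel, read 11.81 and 11.39 against 11.41, 11.18 and 11.43 (0.26, SE 0.14, adjusted p = 0.200), and its groups overlap. Pam16, its regulatory partner, lay above the floor on 2 arrays only, at 6.84 and 6.72 against 6.65, 6.72 and 6.89 (0.02, SE 0.11, adjusted p = 0.904).

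Pmpcb, the catalytic subunit of the matrix processing peptidase, read 7.39 and 7.45 against 7.21, 7.03 and 7.05, a rise of 0.33 (SE 0.10, adjusted p = 0.0324). It was the smallest rise to pass, and it was lost when any array other than wild-type replicate 1 was left out, with adjusted p from 0.0716 to 0.171. Pmpca, the other subunit, read 7.02 and 6.91 against 6.92, 6.96 and 6.95 (0.02, SE 0.09, adjusted p = 0.883). Both subunits lay near the floor, and Immp1l of the inner membrane peptidase was not measured.

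Both genes of the disulfide relay rose. Chchd4, the oxidoreductase that folds small intermembrane space proteins, read 9.57 and 9.73 with the label Flvcr-deleted, against 8.35, 8.34 and 8.18 with the label wild-type. Signal averaged 9.65 ± 0.11 (SD, n = 2) and 8.29 ± 0.09 (SD, n = 3), a 2.56-fold rise (log2 difference 1.36, SE 0.11; adjusted p = 2.74e-05). Gfer, the sulfhydryl oxidase that recharges Chchd4, read 9.74 and 9.62 against 8.72, 8.76 and 8.75. It was 1.91-fold higher (0.93, SE 0.10, adjusted p = 1.02e-04), and its wild-type-labelled arrays lay within an SD of 0.02.

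In outer membrane assembly, Mtx1, a metaxin of the SAM complex, read 11.13 and 11.00 against 10.31, 10.44 and 10.21 (0.75, SE 0.11, adjusted p = 6.63e-04). Samm50, the barrel that does the insertion, was near the floor, at 6.99 and 6.69 against 6.81, 6.95 and 6.84 (-0.03, SE 0.12, adjusted p = 0.891). Its single probe lay above the floor on 3 arrays, so the core of the complex was barely measured.

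Oxa1l, which inserts proteins into the inner membrane from the matrix side, read 7.99 and 8.16 against 7.76, 7.85 and 7.84. Its difference of 0.26 (SE 0.10) did not pass (adjusted p = 0.0769), although the groups do not overlap. Timmdc1, an assembly factor of respiratory complex I despite its name, read 7.48 and 7.87 against 7.41, 7.07 and 7.41 (0.38, SE 0.15, adjusted p = 0.0848). Tomm34, a cytosolic co-chaperone, read 8.71 and 8.80 against 8.47, 8.69 and 8.19 (0.30, SE 0.14, adjusted p = 0.138). For Timmdc1 wild-type replicates 1 and 3, and for Tomm34 wild-type replicate 2, came close to the lower deleted-labelled array.

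**Figure D2:**
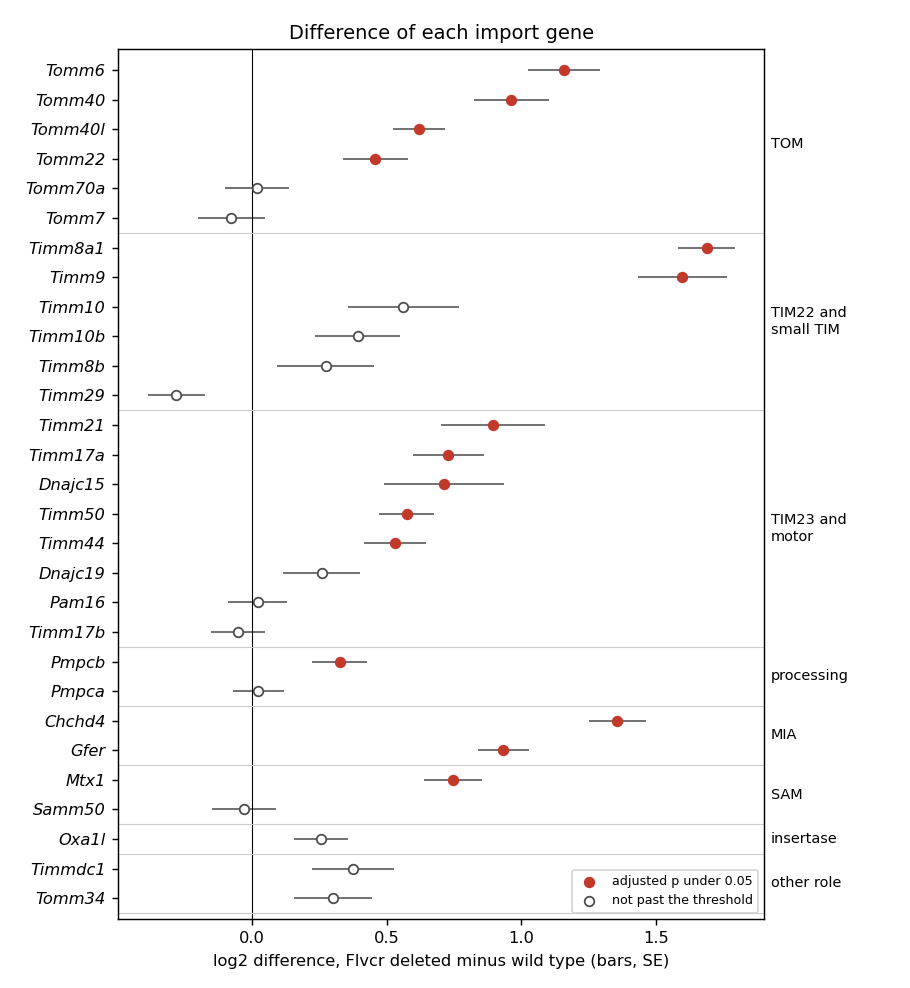
Log2 difference, labelled Flvcr deleted minus labelled wild type, of the 29 measured import genes, ordered by set, with the standard error of limma's fit as bars. Filled points passed an adjusted p under 0.05; they run from 0.33 for Pmpcb to 1.69 for Timm8a1, and no point left of 0 is filled.

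Of the genes above, 12 were read by more than 1 measured probe, the one of highest mean signal being the one given, and probes of a gene were set against each other only as differences. In a fit over all 15221 measured probes 26 of the 48 import probes rose and none fell, where 19.4% of all measured probes rose. All probes of a gene had the same sign in 11 of the 12 genes. Mtx1 rose by all 3 probes (0.75, 0.69 and 0.51), as did Timm44 (0.53, 0.70 and 0.38) and Timm9 (1.60, 0.65 and 0.58). Tomm6 rose by both (1.16 and 0.33) and Tomm40l by both (0.62 and 0.39). In Tomm6, Timm9, Mtx1, Tomm40l, Oxa1l, Timm10b, Dnajc19 and Timm21 every dimmer probe gave a lower difference than the brightest one. Timm8b, Pmpca and Tomm34 went the other way, and Timm44 both ways.

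Timm21 rose by 3 probes (0.90, 0.69 and 0.66), while its dimmest, at a mean of 7.17 in the wild-type-labelled arrays, differed by 0.08 (adjusted p = 0.649). Tomm34 rose by its dimmer probe (0.42, adjusted p = 0.0293) and not by its brighter one. Dnajc19 was the gene whose probes disagreed in sign, with 0.26, -0.03 and -0.11, none of which passed, and the latter pair lay near the floor.

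**Figure D3:**
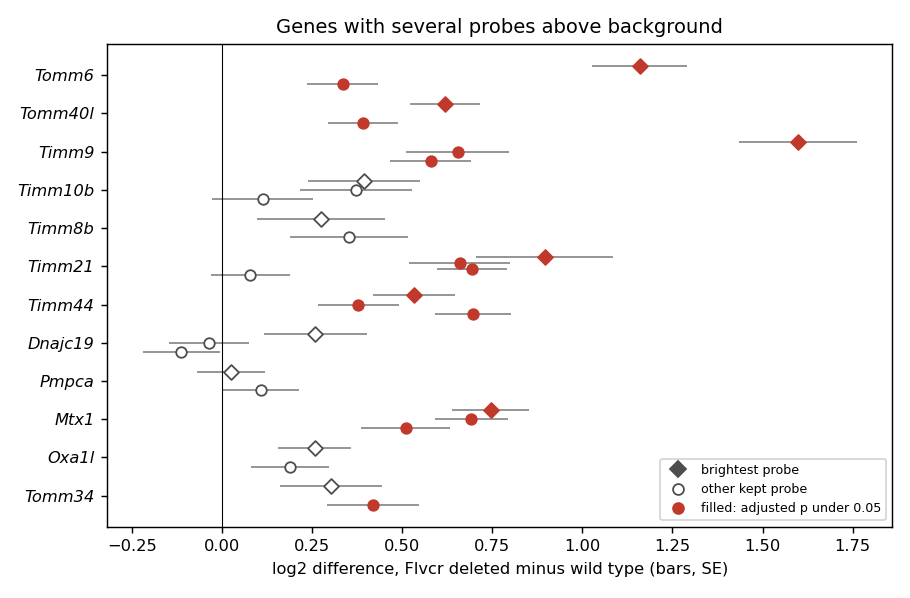
Log2 difference, labelled Flvcr deleted minus labelled wild type, with SE, of every measured probe of the 12 import genes that have several, each gene's probes ordered from bright (top) to dim. Diamonds are the probe used for the gene and filled symbols passed an adjusted p under 0.05 over all measured probes; the brightest probes of Timm9 and Tomm6 stand to the right of their other probes, and all 3 probes of Mtx1 and of Timm44 are filled.

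Other genes of the route, which the choice of members leaves out, were also higher on balance. Of 30 listed chaperones, peptidases, cristae organisers and insertases 23 were measured, of which 13 rose, none fell and 10 did not pass, where 21.8% of all genes tested rose and 17.5% fell. The median difference was 0.35. Hspa9, the mtHSP70 of the import motor, read 13.46 and 13.14 against 11.54, 11.72 and 11.62, a 3.19-fold rise (1.67, SE 0.12, adjusted p = 2.09e-05). The size of its rise was close to that of Timm8a1. Hspd1, the matrix chaperonin that folds imported proteins, read 12.00 and 12.20 against 10.53, 10.55 and 10.37 (1.62, SE 0.11, adjusted p = 1.57e-05), and its partner Hspe1 10.33 and 9.85 against 9.12, 8.50 and 8.74 (1.31, SE 0.20, adjusted p = 7.96e-04). In all 3 the groups were far apart.

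Smaller rises were those of Chchd6, a cristae protein (0.91, SE 0.11), Cox18, an insertase (0.87, SE 0.09), Mipep, the intermediate peptidase (0.77, SE 0.10), Bcs1l, a translocase of the Rieske protein (0.53, SE 0.14), and Aifm1, which docks Chchd4 (0.49, SE 0.13). The nucleotide exchange factors of mtHSP70 did not pass, Grpel1 at 0.23 (SE 0.10, adjusted p = 0.0993) and Grpel2, near the floor, at 0.01 (SE 0.10, adjusted p = 0.956).

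Beside other nuclear-encoded mitochondrial genes, the import members had a median difference of 0.46 with 51.7% rising. Of 73 measured mitochondrial ribosomal protein genes 48, or 65.8%, rose and 3 fell, with a median of 0.62. Of 91 respiratory chain genes 31, or 34.1%, rose and 4 fell, with a median of 0.19. These were taken by symbol, those that begin with Nduf, Cox and a digit, Uqcr, Atp5 or Sdha to Sdhd. Not all are subunits, and Cox18 is counted both here and among the other genes of the route. Over all genes tested 21.8% rose and 17.5% fell. The differences between these lists were not tested.

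**Figure D4:**
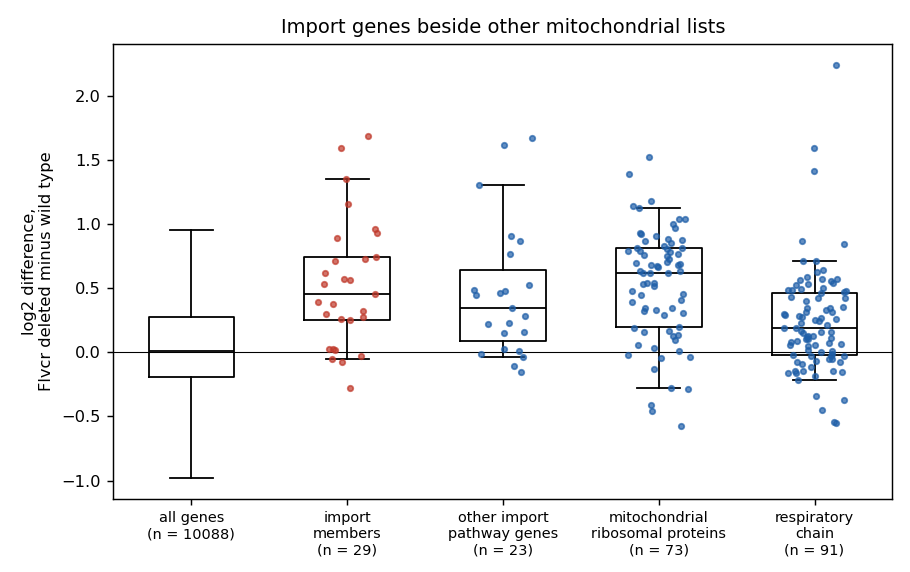
Log2 difference, labelled Flvcr deleted minus labelled wild type, over all 10088 genes, the 29 measured import members, 23 other import pathway genes, 73 mitochondrial ribosomal protein genes and 91 respiratory chain genes. Boxes span the quartiles with the median as a line, whiskers the 5th to 95th percentile, and points are single genes, spread sideways for view; the median is 0.46 for import members and 0.01 for all genes.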

How the data were processed

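Total RNA of 5 samples was measured on bead arrays, after biotin labelling with an Ambion MessageAmp kit, per the labels' protocols. The values the authors deposited were taken as log2 signals. Scale and normalization were read from the values, since neither is given in the sources used here: every array ran from 6.35 to 15.06, and at equal rank the arrays differed by at most 0.0051, as after quantile normalization. A second table, whose 10 columns match no sample's labels, was not used.

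The floor of 6.83 lies 1.64 SD above the peak of the signal distribution, 6.70, the SD (0.0823) being that of values under the peak. The 15221 probes with 1 gene symbol and above the floor on at least 2 arrays gave 10088 genes, each read by its probe of highest mean. Differences were fitted across all genes with limma 3.58.1 (lmFit, eBayes; R 4.3.3) in a two-sided test of genotype without other terms, using the 5 arrays together and Benjamini-Hochberg adjustment over all genes. The fit was tested on simulated data. Every measured member is named, and of other pathway genes those of largest change. Grpel1, Grpel2, Cd79b, Igll1, Mcpt8 and the erythroblast markers were named after their values were seen. The class of 2 or more CACGTG copies was not in the plan. The members and lists were chosen with earlier results of these data known. No sources used here gave protein sequences, so planned protein comparisons were not made. Replicate numbers are shared between groups, but no label says that they pair samples.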

Additional observations from a re-analysis of the deposited data

How the results depend on the processing

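Of the 15 import genes that rose, 11 passed in all 14 alternative settings, and Dnajc15, Pmpcb, Timm44 and Tomm22 did not. The count that rose lay between 13 and 18, the latter with replicate number as a replicate block (median 0.51), where Pmpcb was lost and Timm10, Timm10b, Timm8b and Timmdc1 passed. That fit has 1 residual degree of freedom. Wild-type replicate 3 is alone in its block, so the differences equal those of the setting without that array. These settings are therefore not independent of each other. Over the 14 settings Timm10 passed in 5, Timmdc1 in 3, Timm10b in 2 and Timm8b, Dnajc19 and Tomm34 in 1 each. The count that fell was 1, Timm29, with a gene's probes averaged, with arrays centred on the median or on the 75th percentile, and without wild-type replicate 2 (0 to 1 with single arrays left out). Leaving out single arrays gave medians from 0.37 to 0.51. The median was 0.53 with the floor on all 5 arrays and 0.33 with no floor, where that of TIM22 was 0.27 and that of processing 0.024. The processing median was 0.24 with normexp background correction, 0.12 with centring on the median and 0.14 on the 75th percentile. With probes averaged Tomm6 was at 0.75, Timm21 at 0.58 and Timm9 at 0.94, all still past the threshold. Dnajc15 was lost with no floor (adjusted p = 0.0741), and Pmpcb with either centring (0.0656 and 0.0588). No direction of a gene that passed was reversed. With no floor or with the floor on all arrays, the change comes from which genes enter. For the other changes the cause was not tested. Signals near the floor limit what can be said of Pmpca, Pmpcb, Timm17b, Tomm70a, Samm50 and Pam16.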
